A study of Mus musculus with 6 samples.

Results

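Among the 6 RNA-seq libraries of the series, 4 carried the RNA profile of heart muscle, and these 4 fell into 2 pairs. Wild type 1 and wild type 2 formed the first pair, and wild type 3 and degeneration 1 the second. The pairs were picked from the measured profiles and not from the labels. The contrast between them is therefore described here library by library and is not tested, and its genes support no claim about the pairs. Across 4974 gene loci with a mean of at least 5 CPM (read counts scaled to the library total) over the 4 libraries, Pearson's r of log2(CPM + 1) was 0.979 between wild type 1 and 2 and 0.981 between wild type 3 and degeneration 1. Across the pairs it lay between 0.95 and 0.963, and with degeneration 2 and 3 between 0.644 and 0.659. These correlations run over loci that share libraries and depth, and they are a description only.

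All 6 libraries were made from total RNA of C57BL/6 mice, labelled as intervertebral disc, with 3 libraries in the wild type group and 3 in the intervertebral disc degeneration group. The sample labels name no age, no treatment and no allele. Neither the cause of the degeneration nor the number of mice behind a library is stated in them. The design text of the series speaks of retina of mice aged 21 days, a tissue and an age that no sample label repeats. Total counts ran from 3119215 to 4009562 per library, of which 51.18 to 60.43% fell on rows that could be given a gene by position. At this depth 3 counts, the limit used for a gene with no count, correspond to 0.748 to 0.962 CPM. Intervals quoted or drawn below are exact 95% Poisson intervals of 1 library's count, and they cover counting error only.

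The tissue label was at odds with the profile. Of 14 heart muscle markers 5 could be located (Myh6, Myl3, Ryr2, Lmod2 and Trdn), and their summed level was 25762, 25678, 28497 and 30102 CPM in wild type 1, wild type 2, wild type 3 and degeneration 1, against 18.8 and 20.2 CPM in degeneration 2 and 3. Acan, the core protein of the large cartilage proteoglycan, was at 0.499, 0.280, 0 and 0 CPM in the 4 libraries, and 6 located markers of cartilage and annulus summed to between 22.0 and 31.7 CPM. The 6 located markers of notochord and nucleus pulposus summed to 30.4, 46.4, 39.5 and 31.5 CPM, most of it Cd24a, with Krt19 at 0. Kidney tubule markers, which summed to 10374 and 8252 CPM in degeneration 2 and 3, lay between 33.3 and 49.1 CPM in the 4, with Slc34a1 at 0. The library labelled degeneration 1 thus sat with the wild type libraries. The 7 located skeletal muscle markers summed to 513, 653, 672 and 851 CPM, most of it Ckm, with Actn3 and Myh4 at 0. Gapdh, which every cell uses, was also at 0 in all 4 under this naming of rows, so a 0 is only a listed value.

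As background, heart muscle burns mostly fatty acids, and pyruvate dehydrogenase kinases decide how much glucose-derived pyruvate enters the mitochondria. Fibroblasts between the muscle cells lay down collagen and the glycoproteins that bind it. A circadian clock runs in heart cells: Arntl and Clock switch on the Per, Cry and Nr1d genes, whose products act back on the activators, and the RNAs rise and fall over the day.

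Of the 4974 loci, 180 (3.62%) were at least 1.5-fold higher in both libraries of the first pair than in either of the second, and 97 (1.95%) were lower by the same measure, 277 (5.57%) together. The fold used throughout is the narrowest one: the lower library of the higher pair over the higher library of the lower pair. With any gap at all, 1539 loci (30.9%) lay higher and 1000 (20.1%) lower in wild type 1 and 2, 2539 (51%) together. When TMM factors replaced library totals the 1.5-fold split was 148 higher and 120 lower. At a 2-fold gap there were 45 higher and 25 lower. Every 2 libraries differed by more than counting noise, so none was treated as a second copy of another.

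Cdkn1a, which encodes the cyclin-dependent kinase inhibitor p21, had the widest gap of the protein-coding genes at 20 CPM or more. It was at 91.0, 94.8, 19.6 and 17.9 CPM in wild type 1, wild type 2, wild type 3 and degeneration 1, the order used for all values below, and its gap was 4.65-fold. The locus is chr17:29090976-29100727 (GRCm38, plus strand), and the rows under it held 754 of its 3553 exon bases. The 2 libraries of each pair lay within 1.1-fold of each other. Of 5 p53 response genes at 5 CPM or more it was the only 1 past 1.5-fold. By any gap 2 lay higher, 1 lower and 2 overlapped. Btg2 lay higher by 1.36-fold, at 42.4, 48.4, 22.9 and 31.2 CPM, while Bax ran 27.7, 27.4, 30.1 and 31.5 CPM. The list's median log2 deviation from the 4-library mean was 0.29, -0.09, -0.03 and 0.00.

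Postn, which encodes periostin, a matrix protein of fibroblasts, was at 209, 56.8, 22.6 and 22.0 CPM (chr3:54361109-54391037, plus strand, 577 of its 8702 exon bases). Both libraries of the first pair were above both of the second, with a gap of 2.51-fold, but wild type 1 was 3.68-fold above wild type 2. The log2 gap was 1.33 with all 4 libraries and 3.21 without wild type 2.

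Pdk4, the kinase that shuts pyruvate dehydrogenase when fat is burned, was at 1258, 1021, 295 and 474 CPM (chr6:5483351-5496309, minus strand, all 3511 exon bases). The gap was 2.16-fold, and within the second pair degeneration 1 was 1.61-fold above wild type 3. Degeneration 2 and 3 held 87.5 and 95.2 CPM.

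On the lower side, the clock repressor gene Per3 was at 24.7, 12.3, 76.9 and 66.7 CPM (chr4:151003652-151044665, minus strand, 1621 of its 9608 exon bases), a gap of 2.70-fold, and wild type 1 was 2.01-fold above wild type 2. Its log2 gap was -1.43 with all 4 libraries and -2.44 without wild type 1. Myom2, which encodes the M-protein of the sarcomere's M-band, was at 1148, 809, 3324 and 3053 CPM (chr8:15057653-15133541, plus strand, 1250 of its 8853 exon bases), a gap of 2.66-fold. For both genes the 2 libraries of the second pair lay close together and far above the first.

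Other protein-coding genes with wide gaps upward were of several kinds. Cilp, a matrix protein first known from cartilage that heart fibroblasts also make, was at 159, 62.1, 19.0 and 15.7 CPM. Pirt, a membrane protein known as a regulator of ion channels in sensory neurons, was at 80.8, 76.3, 25.3 and 26.1 CPM. In both the first pair stood clear of the second, by 3.27-fold for Cilp and 2.92-fold for Pirt. The log2 gap of Cilp was 1.71 with all 4 libraries and 3.06 without wild type 2. Cyp1a1, a cytochrome P450 induced through the aryl hydrocarbon receptor, was at 91.0, 95.6, 36.8 and 31.2 CPM. Synpo, an actin-binding protein, was at 36.9, 54.8, 15.7 and 15.7 CPM. Sema3g, a secreted semaphorin of endothelium, was at 97.3, 101, 39.5 and 41.9 CPM. The last 3 had gaps of 2.32- to 2.48-fold.

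Downward, Atcay, which encodes the neuronal protein caytaxin, had the widest gap (4-fold) at 61.6, 69.3, 299.6 and 277 CPM. Gnb3, a G protein beta subunit, followed at 7.98, 7.83, 41.6 and 27.1 CPM (3.39-fold). Lrrc52, an auxiliary subunit of potassium channels, was at 22.2, 12, 58.5 and 58.9 CPM. All 3 were under 5 CPM in degeneration 2 and 3. Rsrc1, a splicing-related protein, was at 30.4, 32.7, 73.9 and 70.5 CPM. Mlf1 was at 46.6, 46.7, 122 and 95.4 CPM, and neither degeneration 2 nor degeneration 3 held a count for it. Clcn1, the chloride channel of skeletal muscle membrane, was at 33.2, 29.1, 79.0 and 66.1 CPM. These 3 had gaps of 1.99- to 2.16-fold.

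**Figure D1:**
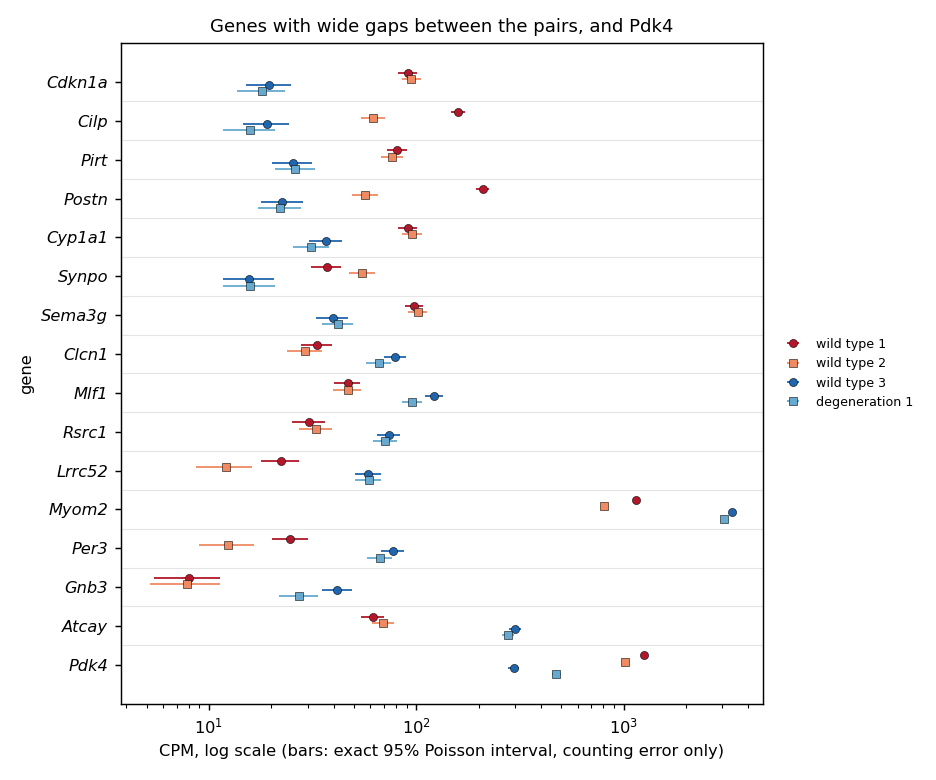
Level in CPM (log axis) of protein-coding loci with wide gaps in either direction, and of Pdk4, in each of the 4 heart-rich libraries; points are single libraries and bars are exact 95% Poisson intervals. Cdkn1a lies at 91.0 and 94.8 CPM in wild type 1 and 2 against 19.6 and 17.9 CPM in wild type 3 and degeneration 1, and Atcay lies the other way.

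Matrix genes past 1.5-fold lay higher in wild type 1 and 2. Of 15 located collagen genes, all at 5 CPM or more, 5 were at least 1.5-fold higher in the first pair and none lower. By any gap 9 lay higher, 1 lower and 5 overlapped. The median log2 deviation was 0.64, 0.07, -0.20 and -0.47, against 0.07, -0.01, 0.00 and -0.05 over all loci. Wild type 1 was the highest of the 4 libraries for 11 of the 15 collagens, where it was highest at 32.1% of all loci, and the list's summed level ran 4579, 2890.1, 2160.4 and 1936 CPM. So wild type 2 was nearer to the second pair than wild type 1 was.

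The fibrillar collagens carried that pattern. Col1a1, a chain of type I collagen, was at 629, 284, 146 and 128 CPM. Its partner chain Col1a2 was at 1749, 832, 448 and 408 CPM (chr6:4504814-4541544, plus strand, all 12426 exon bases). Wild type 1 was more than 2-fold above wild type 2 for both chains. Without wild type 2 the log2 gap of Col1a1 was 2.11 and that of Col1a2 was 1.96. Col5a2 and Col5a3, chains of type V collagen that is built into type I fibrils, were at 439, 228, 134 and 116 CPM and at 135, 114, 59.7 and 60.1 CPM. Col5a1 lay just under the 1.5-fold line, at 220.0, 160.5, 107 and 100.1 CPM with a gap of 1.5-fold. Col16a1, a collagen that lies along fibrils, was at 23.7, 19.0, 8.14 and 6.93 CPM, and here wild type 1 and 2 were close. No located basement membrane collagen of the list was past 1.5-fold. Col4a1 was at 171, 123, 115 and 127 CPM, with degeneration 1 above wild type 2, and Col15a1 was at 863, 868, 870.2 and 760.0 CPM. Col4a2, at 70.1, 57.9, 57.3 and 39.7 CPM, lay only just higher in the first pair, and Col18a1, at 7.98, 8.11, 5.73 and 3.46 CPM, by 1.39-fold.

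Of 16 matrix glycoproteins and proteoglycans at 5 CPM or more (18 of 39 located), 6 were at least 1.5-fold higher in the first pair and none lower. By any gap 10 lay higher and 3 lower, with medians of 0.61, 0.13, -0.28 and -0.47. Besides Cilp and Postn these were Fbln2, Vcan, Ltbp2 and Emilin1. Fbln2, an elastic fibre protein, was at 226, 185, 85.6 and 75.9 CPM. Vcan, the large proteoglycan versican, was at 96.8, 79.4, 44.0 and 28.0 CPM. Ltbp2, which binds fibrillin, was at 15.2, 10.6, 1.51 and 4.41 CPM, so 2 of its values rest on few counts. Emilin1, another elastic fibre protein, was at 32.7, 31.9, 19.0 and 15.1 CPM. Fn1, Sparc and Bgn, which encode fibronectin, osteonectin and biglycan, had gaps of 1.29- to 1.38-fold in the same direction, with Fn1 at 551, 275, 202 and 159.9 CPM. Dcn, the proteoglycan decorin, overlapped between the pairs at 259, 175, 221 and 250.3 CPM.

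Among 11 matrix processing enzymes at 5 CPM or more, 3 were past 1.5-fold upward and none downward, and by any gap 7 lay higher and 2 lower. Mmp3, the protease stromelysin, was at 25.7, 22.1, 7.54 and 4.72 CPM. Serpinh1, the collagen chaperone, was at 119, 108, 51.5 and 57.9 CPM. Pcolce, which speeds the trimming of procollagen, was at 160.4, 152, 98.9 and 88.8 CPM and lay just inside the line at 1.54-fold. Adamts2, a procollagen protease, lay just outside it at 36.4, 29.4, 19.9 and 15.7 CPM and 1.48-fold. Ucp2 at 1.5-fold and Camk2d at 1.52-fold also lay just inside, and Fkbp5 at 1.49-fold lay just outside. Among TGF-beta pathway genes, the receptor gene Tgfbr1 was at 215, 155, 149 and 163 CPM and overlapped between the pairs.

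**Figure D2:**
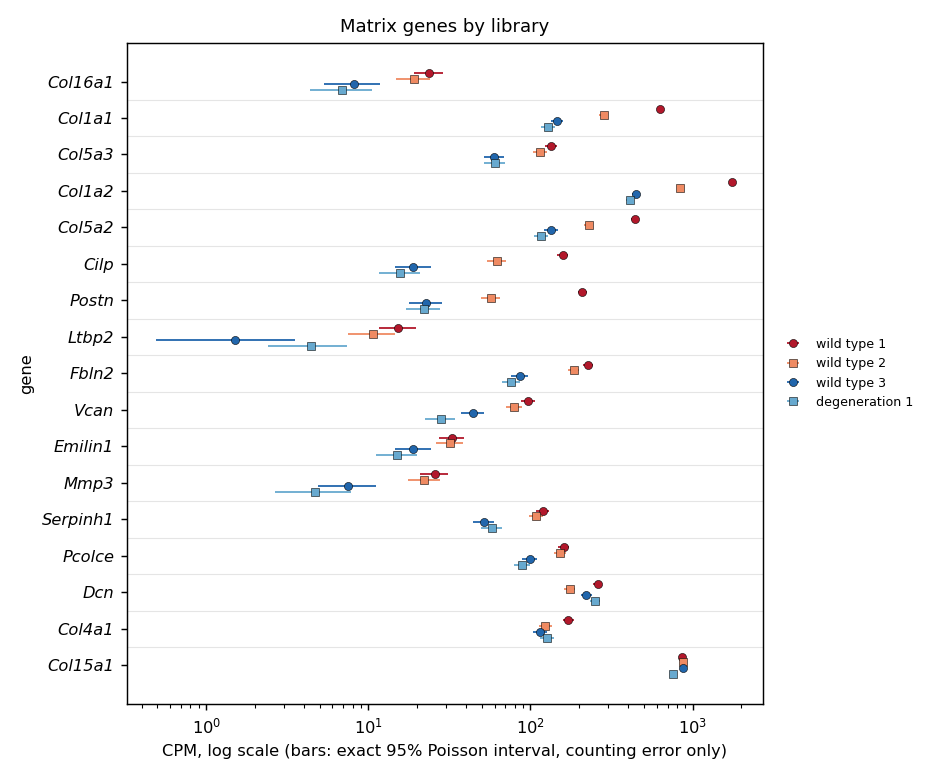
Level in CPM (log axis) of matrix genes in each of the 4 libraries, with exact 95% Poisson intervals. Wild type 1 lies above wild type 2 for Col1a1, Col1a2 and Postn, while Col15a1, Col4a1 and Dcn do not part the pairs.

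Fibroblast markers moved with the matrix genes in part. Of 9 located markers 4 were at least 1.5-fold higher in the first pair, namely Col1a1, Col1a2, Postn and Meox1, and 3 of these 4 are matrix genes themselves. The 9 summed to 4362, 2752, 2239 and 2323 CPM, and none was at 0. Pdgfra, a receptor that marks fibroblasts, was at 179.6, 178, 143 and 169 CPM. Gsn, which encodes gelsolin, was at 1151, 1041, 1097 and 1200.2 CPM, with degeneration 1 the highest. Macrophage markers lay higher in the first pair as well: 3 of 5 at 5 CPM or more were past 1.5-fold, against 3.62% of all loci. Their sum over 6 located genes ran 296, 253, 179 and 174 CPM, and Lyz2 was at 122, 79.1, 46.7 and 42.5 CPM. Their part in the matrix values was not tested. In whole tissue, fewer cells of a type and less RNA per cell cannot be told apart.

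Fuel genes did not move as a group with Pdk4. Of 18 genes of the pyruvate dehydrogenase switch and glucose use at 5 CPM or more, Pdk4 was the only 1 past 1.5-fold in either direction, and 8 lay lower in the first pair by any gap. Pdk1, another kinase of the same complex, was at 41.9, 28.5, 49.1 and 48.5 CPM. Pdp1, the phosphatase that opposes the kinases, was at 142, 114, 149 and 186 CPM. Pdhb, a subunit of the enzyme itself, was at 279, 233, 261 and 356 CPM. None of the 3 shared the step seen in Pdk4. Muscle glucose uptake and its first steps lay the other way by a small gap. Slc2a4, the insulin-dependent glucose transporter, was at 124, 110.2, 156 and 215 CPM. Hk2, a hexokinase, was at 269.6, 322, 392 and 421 CPM. Pfkm, the muscle phosphofructokinase, was at 701, 705, 924 and 1036 CPM. Gys1, glycogen synthase, was at 183, 177, 127 and 145 CPM and thus higher in the first pair, by 1.22-fold.

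Of 10 fatty acid oxidation genes, Ucp2 was past 1.5-fold, a mitochondrial carrier of the uncoupling protein family at 96.3, 89.8, 59.7 and 56.4 CPM. This locus fell below 1.5-fold when 0.5 CPM was added to each value. Lipe, the hormone-sensitive lipase, was at 149, 193, 106 and 96.0 CPM. Ucp3 was at 82.6, 129, 47.0 and 81.2 CPM, with hardly a gap. The oxidation genes proper followed another split, in which degeneration 1 stood above the 3 wild type libraries. Degeneration 1 was the highest of the 4 libraries at 21.3% of all loci. It was highest for 8 of 10 fatty acid oxidation genes and 8 of 10 nuclear genes of oxidative phosphorylation. Of 6 ketone and branched-chain amino acid genes it was highest for 5. These lists were not alone: it was also highest for 10 of 18 genes of the pyruvate dehydrogenase switch and glucose use. Of 9 thick filament and M-band genes it was highest for 5, and of 7 Z-disc and intercalated disc genes for 1. Summed oxidative phosphorylation genes ran 4219, 3853, 4027 and 5653 CPM.

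Hadha, an enzyme of the mitochondrial beta-oxidation complex, was at 241, 227, 235 and 393 CPM. Acadl, the long-chain acyl-CoA dehydrogenase, was at 475, 428, 430.4 and 659.6 CPM. Eci1, an enoyl-CoA isomerase of the same pathway, was at 145, 128, 162 and 246 CPM. In the respiratory chain, Sdhb of complex II was at 484, 434, 421 and 712 CPM. Uqcrc1 and Uqcrc2, core subunits of complex III, were at 1214, 1211, 1167 and 1684 CPM and at 427, 327, 372 and 659 CPM. For each of these 6 genes degeneration 1 was above all 3 wild type libraries.

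**Figure D3:**
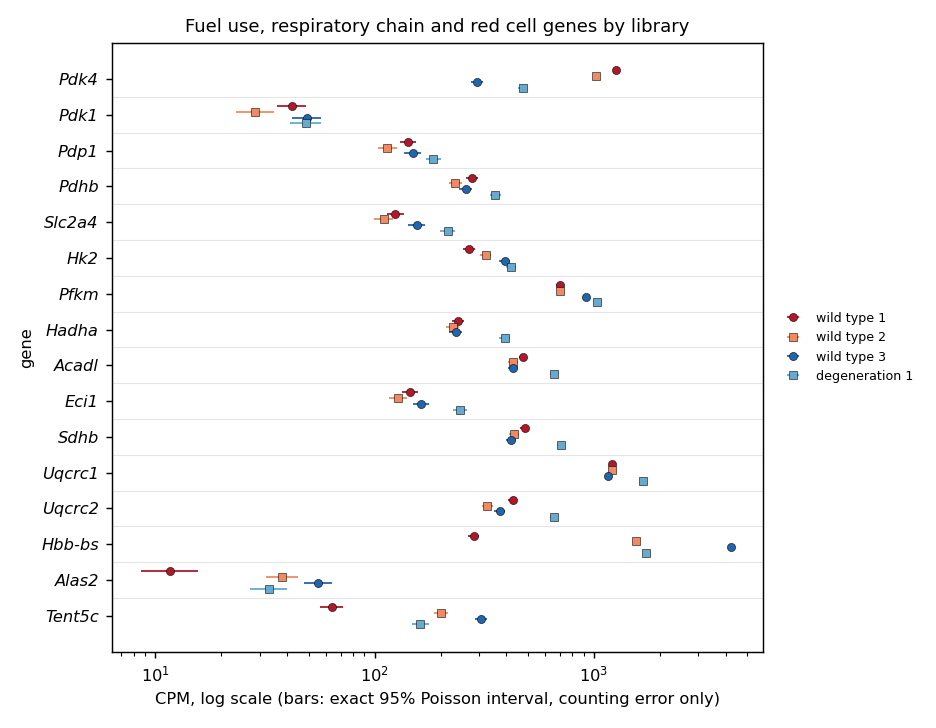
Level in CPM (log axis) of fuel, respiratory chain and red cell genes in each of the 4 libraries, with exact 95% Poisson intervals. Pdk4 parts the pairs, Hadha, Acadl, Sdhb, Uqcrc1 and Uqcrc2 are highest in degeneration 1, and Hbb-bs, Alas2 and Tent5c are lowest in wild type 1.

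Degeneration 1 against wild type 1 to 3 is a comparison of the labels inside the heart profile, and it was tested across all loci with edgeR's quasi-likelihood test and Benjamini-Hochberg adjustment. The single degeneration library was assumed to vary like the wild type ones. Of 5810 loci 1 (0.0172%) passed an adjusted p of 0.05, and 380 had an unadjusted p under 0.05; DESeq2 also called 1, of 8336. No member of the fuel lists passed. For Hadha edgeR gave a log2 fold change of 0.82 ± 0.15 (SE, adjusted p 0.73), for Uqcrc2 0.88 ± 0.18 and for Sdhb 0.75 ± 0.16, all 3 at that adjusted p. At an unadjusted p under 0.05, 7 of 12 oxidative phosphorylation genes, 5 of 11 fatty acid oxidation genes and 4 of 6 ketone and branched-chain genes were higher and none lower. Over all loci 214 (3.68%) were higher and 166 (2.86%) lower by that measure. Nothing in the labels says that the libraries came from separate mice, so these p-values measure the spread between libraries, which may be technical.

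The locus that passed was Gm43534, an unnamed transcript at chr3:96464072-96466924 (minus strand), with 5.74, 2.80, 10.2 and 167 CPM and a log2 fold change of 4.82 ± 0.39 (SE, adjusted p of 0.019 by edgeR's quasi-likelihood test). On simulated data this comparison made 9 false calls, and the degeneration side rests on 1 library. The locus was high in degeneration 1 alone, since degeneration 2 and 3 held 4.64 and 8.01 CPM. The call was lost without wild type 1 or without wild type 2. Without wild type 3 more loci passed, but that fit sets degeneration 1 against wild type 1 and 2 alone. It then follows the contrast between the pairs, which were picked from measured values, so its calls are no result about the labels. The whole comparison shares its libraries with the pairs and is no independent evidence about them. Over all 6 libraries edgeR called none of 5605 loci (0%), while DESeq2 called 528 of 6384. Unadjusted p-values under 0.05 numbered 1094 there, with 668 loci (11.9%) higher in degeneration and 426 (7.6%) lower.

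Some clock genes parted the pairs, in both directions. At 5 CPM or more there were 13 located clock genes. Arntl, the activator also known as Bmal1, was higher in the first pair at 32.9, 22.1, 14.2 and 12.9 CPM, a gap of 1.56-fold. The row at this locus covered only 100 of its 7523 exon bases, and the intervals of the nearest libraries met. The repressor Nr1d2, also known as Rev-erb beta, was lower at 58.6, 41.1, 124 and 102 CPM, 1.74-fold. Cirbp, an RNA-binding protein whose level follows body temperature, was lower at 48.4, 56.5, 126 and 106 CPM, 1.88-fold. With Per3, these were the 4 clock genes past 1.5-fold: 1 of 3 activators higher, 2 of 4 repressors lower and 1 of 6 outputs lower. Over all loci 3.62% were higher and 1.95% lower by that measure, and each of these lists is small.

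The rest showed smaller steps or none. Tef, an output transcription factor that binds D-boxes, was at 45.1, 27.4, 57.3 and 53.5 CPM, 1.19-fold lower. Rora, an activator of Arntl, was at 99.0, 69.3, 120.0 and 109.6 CPM. Clock itself was at 41.4, 25.7, 24.4 and 31.2 CPM and overlapped. Per2 was at 17.0, 12, 22.0 and 14.8 CPM and overlapped as well. Rbm3, a relative of Cirbp, was lower by 1.14-fold at 124, 129.7, 159 and 148 CPM. Klf9, an output that also answers to glucocorticoids, was at 121, 124, 96.2 and 119 CPM.

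Degeneration 2 and 3, which carry another tissue profile, lay outside the range of the first pair for the 4 genes, on the side of the second. They held 64.3 and 75.0 CPM of Per3, 79.4 and 105 CPM of Nr1d2, 133 and 139 CPM of Cirbp and 11.6 and 11.9 CPM of Arntl. Over the 6 libraries, wild type 1 and 2 were therefore the lowest for Per3, Nr1d2 and Cirbp and the highest for Arntl. The levels of 2 tissues stand side by side here, and no test was made. The 4 genes were singled out because they part the pairs. The share of all parted loci that lie the same way was not counted, so these values support no claim about the pairs.

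**Figure D4:**
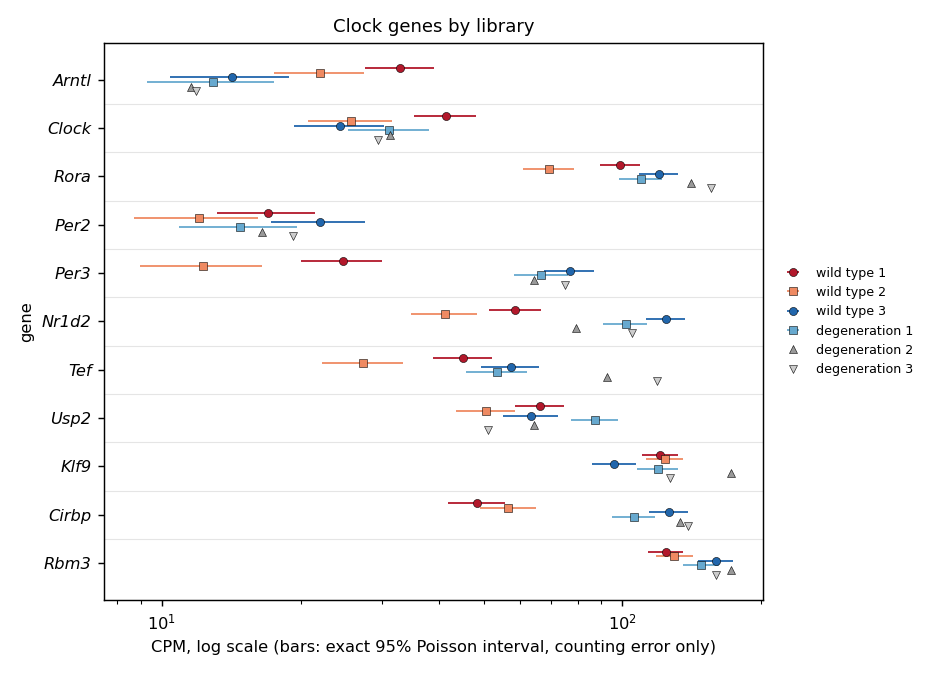
Level in CPM (log axis) of 11 clock genes in all 6 libraries, with exact 95% Poisson intervals for the 4 heart-rich libraries. Wild type 1 and 2 are the lowest of the 6 for Per3, Nr1d2 and Cirbp and the highest for Arntl.

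The start regions of these genes were read for 3 letter strings that clock factors are known to bind, on both strands: the E-box CACGTG, bound by the Arntl and Clock proteins, the D-box TTANGTAA, bound by Tef and its relatives, and the ROR element TAGGTCA, bound by Rora and the Nr1d proteins. RefSeq windows of 300 bases (GRCm38.p6) were found for 9 of the 13 clock genes, and 3 of them held a string, each of 1 kind, so that none overlapped another. The 3 are shown because they alone held a string, and capitals mark the string. The RNAs of Nr1d2 and Cirbp also lay apart between the pairs, and their windows held none. The strings of Arntl and Tef lie on bases that some transcripts include, so only a short stretch is given.
Per3 (chr4:151044794-151044893, minus strand, 2 D-boxes): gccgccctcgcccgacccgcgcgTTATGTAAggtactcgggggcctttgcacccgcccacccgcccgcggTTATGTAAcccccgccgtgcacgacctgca
Arntl (chr7:113207529-113207558, plus strand, 1 ROR element): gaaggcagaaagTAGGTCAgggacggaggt
Tef (chr15:81802534-81802563, plus strand, 1 E-box): gtgctgtggctcCACGTGctgcagctggca

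Of all 32851 windows, 7.15% held the E-box, 2.32% the D-box and 2.61% the ROR element. A match is a string of letters and not a shown binding site. The windows of Nr1d2, Cirbp, Clock, Rora, Usp2 and Klf9 held none of the 3 strings, which says only that these letters are not in them.

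Sarcomere genes other than Myom2 differed little between the pairs. Of 9 thick filament and M-band genes at 5 CPM or more, Myom2 alone was past 1.5-fold. Myom1, which encodes the related M-band protein myomesin, was at 1172, 1295, 1223 and 1472 CPM, and the giant protein titin's gene Ttn was at 9981, 11338, 10294 and 9337 CPM. Both overlapped between the pairs. Myh6, the main myosin heavy chain of the adult mouse heart, was at 14664, 16395, 17448 and 18993 CPM, a gap of 1.06-fold. Myl3, the essential light chain of the ventricle, was at 1827, 1645, 2369.9 and 2596 CPM, 1.30-fold lower in the first pair.

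In the thin filament, none of 6 genes was past 1.5-fold. Lmod2, which sets filament length, was at 1656, 1292, 2005 and 2110.1 CPM. Tnnt1, the slow skeletal troponin T, was at 50.1, 50.1, 70.5 and 77.5 CPM, 1.41-fold lower in the first pair. Tpm2, the beta tropomyosin, was at 118, 137, 88.3 and 82.8 CPM and higher. Of 7 Z-disc and intercalated disc genes, Flnc, which encodes filamin C, was past 1.5-fold upward at 2493, 3242, 1449 and 1592 CPM, but not when TMM or DESeq2 factors replaced library totals. Xirp2, an actin-binding protein of the intercalated disc, was at 1245, 884, 613 and 798 CPM. Pdlim5 was at 709.6, 735, 491 and 598 CPM, and Svil, supervillin, was lower in the first pair at 2416, 2646, 3229 and 3027 CPM. Flnc, Xirp2 and Pdlim5 thus lay higher in the first pair while Svil lay lower.

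Of 11 calcium handling genes, Camk2d, a calcium-dependent kinase of the heart, was past 1.5-fold downward at 198, 198, 301 and 311 CPM. Ryr2, the calcium release channel, was at 7264, 6098, 6211 and 6012 CPM and overlapped. Trdn, triadin, was at 351, 249, 463 and 391 CPM. Asph, whose locus also yields junctional proteins of the same store, was at 931, 884, 1090.3 and 1146 CPM. Sln, a pump regulator of the atrium, had no count in wild type 1 and 2 and was at 5.43 and 9.76 CPM in wild type 3 and degeneration 1, under 5 CPM on average. Other atrial markers did not follow: Bmp10 was at 2.49, 1.40, 3.01 and 2.52 CPM and Dkk3 at 21.4, 19.9, 25 and 14.5 CPM.

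Red cell genes followed neither split as a group. Hbb-bs, an adult beta globin, was at 283, 1563, 4245 and 1724 CPM, so wild type 1 was the lowest and wild type 3 the highest, with 5.52-fold between the 2 libraries of the first pair. Its reads can be shared with the near-identical Hbb-bt, so the value is uncertain as to the copy. Alas2, the haem synthesis enzyme of red cells, was at 11.7, 38.0, 55.2 and 33.1 CPM. Tent5c, a poly(A) polymerase of maturing red cells, was at 63.8, 202, 307 and 162 CPM. In these 3 genes wild type 1 was the lowest and wild type 3 the highest, with wild type 2 and degeneration 1 between them. Other red cell genes did not share this order. Blvrb, the remaining one of 3 located haem genes, was highest in wild type 1, at 16.71, 15.94, 14.77 and 11.02 CPM. Of 8 membrane and maturation genes at 5 CPM or more, wild type 3 was highest for 1 and degeneration 1 for 4. The membrane gene Sptb, which encodes a spectrin, was at 82.1, 91.7, 94.7 and 107 CPM, with degeneration 1 the highest. Slc4a1, the anion exchanger of red cells, stayed at 4.24, 8.95, 4.52 and 3.46 CPM. None of 3 haem genes and none of 8 membrane and maturation genes at 5 CPM or more was past 1.5-fold.

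Smaller lists are given by their counts. Over all loci 30.9% lay higher in the first pair by any gap and 3.62% by at least 1.5-fold. All 4 immediate early genes at 5 CPM or more lay higher in the first pair by some gap, 2 of them past 1.5-fold. Their medians were 0.29, 0.77, -0.54 and -0.33. Nr4a3, a nuclear receptor, was at 13.5, 17.6, 3.32 and 7.87 CPM and Junb, a subunit of the AP-1 factor, at 33.7, 55.6, 19.6 and 21.1 CPM; Junb was not past 1.5-fold under TMM or DESeq2 factors. Ier2 and Klf4, the other two, had gaps of 1.29- and 1.04-fold. Of 5 glucocorticoid response genes none was past 1.5-fold and 3 lay higher by any gap. Fkbp5, an immunophilin, was at 44.6, 32.4, 16.6 and 21.7 CPM. Of 3 heart load genes Fhl1, a LIM domain protein of muscle, was past it at 27.2, 23.5, 13.0 and 13.2 CPM. Of 4 hypoxia genes Car9, a carbonic anhydrase, was past it at 9.23, 11.2, 3.01 and 3.15 CPM, while Adm, adrenomedullin, lay slightly lower in the first pair at 12.5, 13.7, 17.2 and 18.6 CPM. None of 5 heat shock genes was past 1.5-fold. Txnip, an inhibitor of glucose uptake, was at 105, 129, 167 and 236 CPM, and Insr, the insulin receptor, at 422, 435, 577 and 511 CPM, both lower in the first pair by under 1.5-fold.

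**Figure D5:**
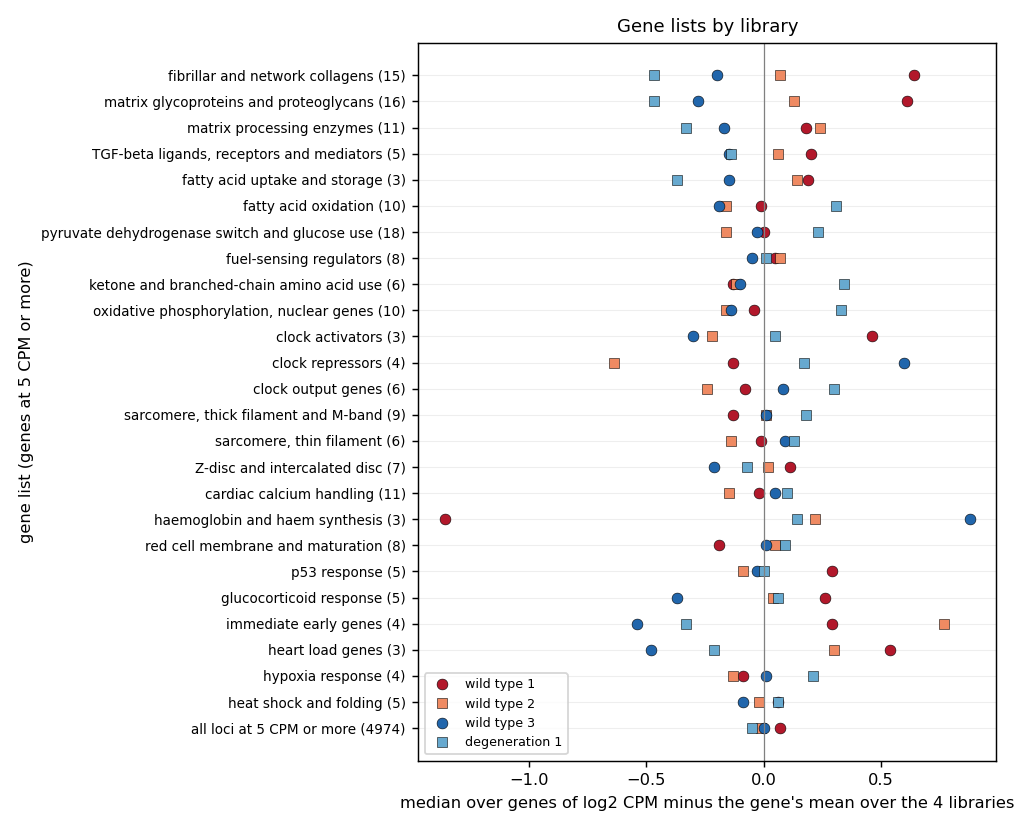
For each gene list with at least 3 genes at 5 CPM or more, the median over its genes of log2 CPM minus the gene's own mean over the 4 libraries, 1 point per library. Collagens run from 0.64 in wild type 1 to -0.47 in degeneration 1, and oxidative phosphorylation is at 0.33 in degeneration 1 alone. Haemoglobin and haem synthesis runs from -1.36 in wild type 1 to 0.88 in wild type 3. That list holds 3 genes, and 1 of them, Blvrb, is highest in wild type 1.

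Other cell types differed between the libraries as well. The 8 located endothelial markers summed to 1352, 1406, 1219 and 898 CPM, lowest in degeneration 1. Pecam1, an adhesion protein of endothelium, was at 512, 492, 419.6 and 325 CPM, and Eng, a TGF-beta co-receptor there, at 129, 173, 105 and 80.0 CPM. In the comparison of degeneration 1 with wild type 1 to 3, 5 of the 8 had an unadjusted p under 0.05, all lower, and none passed the adjusted threshold by edgeR. Smooth muscle and pericyte markers were highest in wild type 2 for all 5 genes, where 24.5% of all loci were, and summed to 273, 391, 288 and 270.1 CPM. Dividing cell markers were highest in wild type 1 for 3 of 4 genes. Located adipocyte markers summed to 152, 199, 108 and 99.5 CPM, nearly all of it Lipe. Neutrophil markers stayed between 5.04 and 12.7 CPM. The part of these cell types in the gene values above was not tested.

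The noncoding loci Gm42418 and Rmrp were picked out once their values were known. Gm42418, a long noncoding locus that lies on a ribosomal RNA repeat and shares 192 of its 196 covered bases with another gene, was at 2039, 2212, 633 and 627 CPM, and at 2076 and 2275 CPM in degeneration 2 and 3. Rmrp, the RNA of the enzyme RNase MRP, whose row also overlaps another gene's exons, was at 281, 301, 167 and 134 CPM. Both were higher in the first pair, by 3.22- and 1.69-fold. The part of ribosomal RNA in the other values was not tested.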

How the data were processed

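The deposited counts are whole-number read counts per row made with featureCounts 2.0.1, per the file headers, in paired-end mode over exons, grouped by gene name and with no strand option. Bowtie 0.12.2, mm8 and mm9 are listed in the submitters' processing notes, with no role given. Of 53546 rows, 49890 carry coordinates outside all GRCm38 exons of their namesake gene. Rows were therefore named by position (GENCODE M21, bedtools 2.31.1): a row was given to a gene when 80% or more of its annotated bases, and 100 or more bases, lay on that gene's exons. This gave 13561 rows and 11134 loci, 9314 of them of 1 row. Rows were summed per gene and divided by the library total to give CPM. A level is thus read from the part of a gene that its rows cover. Reads of overlapping genes cannot be told apart without strand.

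The pairs are described without a test. Label comparisons used edgeR 4.0.16 (quasi-likelihood, TMM, filterByExpr, Benjamini-Hochberg) in R 4.3.3, with DESeq2 1.42.0 as an alternative. Simulated data took their means and spread from the wild type libraries alone. On them the 6-library comparison (5605 loci) found 78% of changes of 2-fold and 95% of those of 4-fold, and made 11 false calls. The 4-library comparison (5810 loci) found 25% and 74%, and made 9 false calls. The real degeneration group mixes tissue profiles. In the real 6-library fit edgeR's common dispersion, its estimate of the spread, was 0.1867, against 0.031 in the 4-library fit. The shares found in simulation therefore do not describe the real 6-library comparison. The members and lists were chosen with earlier results of these data known. Named by rule were the 5 marker genes, up to 5 parted members of each of 25 lists (or its 2 most abundant), and the 8 protein-coding loci with the widest gap in each direction at 20 CPM or more; further genes were picked out once their values were known. Some genes of this choice are not reported here. A table of the whole series with 12 columns whose names match no sample label was not used.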

Additional observations from a re-analysis of the deposited data

How the results depend on the processing

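The 1.5-fold gap was met by 277 loci, and by 268 with TMM or DESeq2 factors, 248 when a row had to hold 95% of its exon bases on 1 gene, and 277 when rows already in register kept their name. It moved to 466 with a mean of at least 1 CPM, 140 with at least 20 CPM, and 643 over rows as deposited. A looser gap gave 718 and a gap of 2-fold gave 70. With 1 of the 4 libraries left out in turn it ranged from 464 (without degeneration 1) to 639 (without wild type 3), since fewer libraries have to part. Of 95 named genes 38 had a gap of 1.5-fold: 36 kept it under TMM or DESeq2 factors (Flnc and Junb did not) and 37 with 0.5 CPM added (Ucp2 did not). Leaving out a library moved the gap of 6 to 17 of the 95, 17 of them without wild type 3. A gap counted as moved when it changed by at least the standard deviation of log2 CPM over the 3 wild type libraries. That spread takes in libraries of both pairs and is not the spread inside a pair.

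Over 6 libraries edgeR called 0 loci, also with DESeq2 factors, without TMM, without a filter and under deposited row names. DESeq2 called 528 (435 higher, 93 lower); the cause was not tested. Leaving out 1 library gave 0 to 3286 calls, the 3286 (1670 higher, 1616 lower) without degeneration 1. That fit sets the libraries rich in kidney tubule markers against wild type libraries with the heart profile. Label and tissue profile cannot be told apart there, so its calls are no result about the labels. With the replicate number as a block there were 0 calls. Same-numbered libraries deviated together with r of -0.059, 0.074 and -0.084, so they share only a number. Inside the heart profile 1 locus was called by edgeR under each scaling and without a filter, and 2 under deposited row names. Leaving out 1 wild type library gave 0 to 416, the 416 without wild type 3. No paired analysis was possible there because a single degeneration library takes part. Depth limits loci under about 5 CPM, where a library holds about 20 counts or fewer.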
